A study of Mus musculus with 6 samples.

Results

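DNA replication and G1/S genes are the genes whose products license and fire replication origins, copy and join DNA, supply its building blocks and carry cells over the boundary from G1 to S phase. A list of 43 such genes was drawn up by gene function, with earlier results of these data known. The messenger RNA of these genes was followed in macrophages grown from mouse bone marrow. Each of the 43 had a probe that matched its transcript accession in RefSeq and was detected well above background by at least 3 arrays out of 6, so 43 of the 15736 genes tested are described. Where a gene had several probes, the one with the highest mean signal was used. The mice were of the C57BL/6 strain and 11 weeks old, and their bone marrow was cultured for 5 days in 10% fetal bovine serum with GM-CSF, the granulocyte-macrophage growth factor, at 10 ng/mL. The Bach1 knockout group (KO) held mice 947, 948 and 949, and the wild-type group (WT) held mice 1, 2 and 3, each with 1 array from 1 mouse. KO 947, KO 948, WT 1 and WT 2 were male, and KO 949 and WT 3 were female. The labels name no allele, promoter or Cre line for the knockout. The study's title asks about Bach1 in heme and iron balance of these cells.

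Replication begins with licensing. The origin recognition complex, with Cdc6 and Cdt1, loads the ring-shaped MCM2-7 helicase onto origins in G1, and kinases then recruit Cdc45 and GINS to switch the helicase on in S phase. Many of these genes are under the control of E2F transcription factors, which cyclin and cyclin-dependent kinase complexes release from the retinoblastoma proteins. GM-CSF is a mitogen for myeloid precursors, so cultures of this kind can hold cycling cells beside differentiated macrophages. BACH1 is a heme-binding repressor that works with small MAF proteins at elements of the antioxidant type.

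Levels are log2 signals from which the 75th percentile of the same array was taken away, and differences are KO minus WT on that scale. KO 947 shared a slide with WT 1, 2 and 3, and KO 948 and KO 949 lay on a second slide. Between 62.5% and 65.1% of spots were well above background on the KO arrays, against 70.3% to 73.2% on the WT arrays, so the genotypes did not overlap in this share. The Bach1 probe read 1.45, 2.00 and 2.23 in KO 947, 948 and 949, against 2.21, 2.48 and 2.59 in WT 1, 2 and 3, and its difference of -0.54 ± 0.24 (SE) did not pass the test (adjusted p = 0.262, limma). The sources used here do not place the probe relative to the deletion, so it does not check the labels. All 9 tested macrophage markers were above background on all 6 arrays, with a summed linear level of 429 to 457 in KO and 409 to 453 in WT. Precision is limited by the small number of arrays, 3 for each genotype.

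The replication and G1/S genes lay higher in Bach1 KO macrophages as a group, mostly by modest amounts. Of the 43 genes, 41 had a difference above 0, against 49.2% of all genes tested. Their median difference was 0.47, or 1.38-fold, and the median over all genes was -0.01. Cdc6, Uhrf1, Pola1 and Lig1 rose in KO at an adjusted p under 0.05 (limma, Benjamini-Hochberg adjustment over all 15736 genes). These 4 genes are 9.30% of the members, against 1.14% of all genes that rose. No member fell, whereas 2.27% of all genes did. At an unadjusted p under 0.05, 23 members (53.5%) were higher in KO and 0 were lower, where 8.87% and 11.6% of all genes were. Every KO array with a value exceeded every WT array with a value for 30 members (69.8%), against 13.4% of all genes. Among these 30, Mcm4 lacks a value on KO 948 and Rfc4 on WT 3. No member had every KO array under every WT array, where 2123 of all 15736 genes did. In whole cultures, a larger number of cycling cells and more of these messages per cell cannot be told apart.

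**Figure D1:**
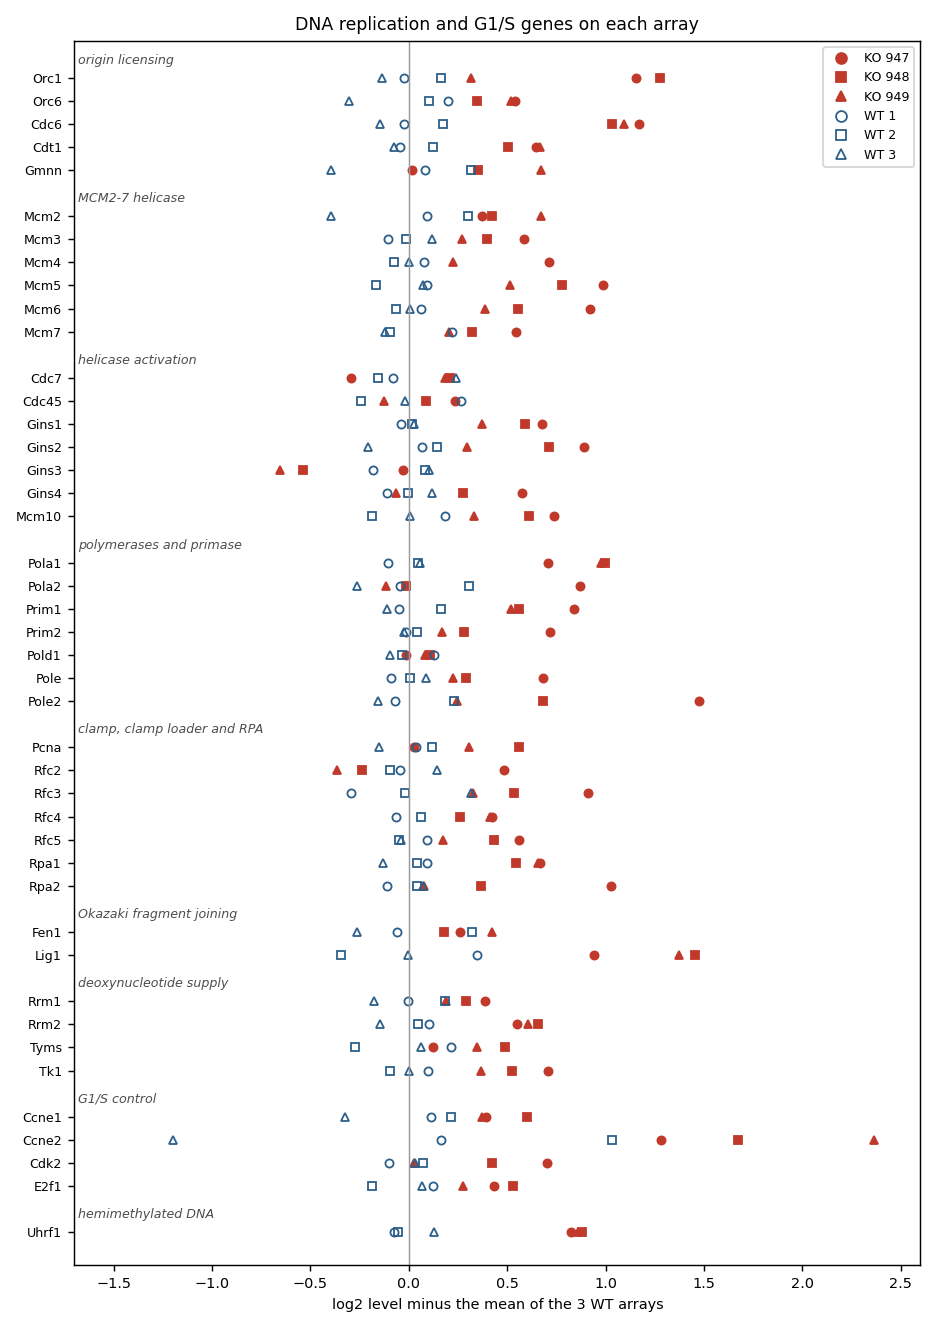
Level of each of the 43 genes on each array, as log2 level minus the mean of the 3 WT arrays (horizontal axis), with genes grouped by role down the page, filled red symbols for KO 947, 948 and 949 and open blue symbols for WT 1, 2 and 3. Red symbols lie right of every blue symbol of their row in 30 genes, and Gins3 and Rfc2 are the 2 genes whose KO mean is lower.

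The size of the difference varied among the arrays. Taken as the median of the members' levels minus the WT mean, it was 0.66 in KO 947, 0.50 in KO 948 and 0.32 in KO 949, against -0.01, 0.04 and -0.02 in WT 1, 2 and 3. The 3 KO arrays thus stood apart from the WT arrays, and KO 947 stood farthest. Among the 41 members measured on every array, KO 947 was the highest of the 6 arrays for 23 (56.1%), and over 15701 genes measured on every array it was the highest for 24.3%. KO 948 was the highest for 9 members (22.0%, against 9.52% of all genes) and KO 949 for 5 (12.2%, against 19.0%). WT 1 and WT 3 were the highest for 2 each (4.88%, against 19.7% and 15.5%), and WT 2 for none, against 11.9%. WT 3 was the lowest of the 6 arrays for 20 members, and for 2598 of the 15701 genes.

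KO 947 is also the only KO array on the slide of the WT arrays, so with the slide as a block it alone sets the contrast. In that fit 40 members were higher in KO with a median of 0.66, against 52.4% of all genes and a median of 0.02 over all genes. No member passed the threshold there (limma), and 0.14% of all genes rose. At an unadjusted p under 0.05, 28 members were higher with the slide as a block, against 8.90% of all genes. The members' median therefore did not shrink within the shared slide, while the calls of single genes were lost. Scaling to the median of each array instead of its 75th percentile moved the median of all genes to 0.21 and put 70.4% of them above 0. On that scale 42 members were higher, their median was 0.67, 13 rose, against 2.44% of all genes, 35 had an unadjusted p under 0.05 in that direction, against 20.7%, and 35 did not overlap, against 27.3%. Relative to the shift of all genes, the members' median was 0.46 there.

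**Figure D2:**
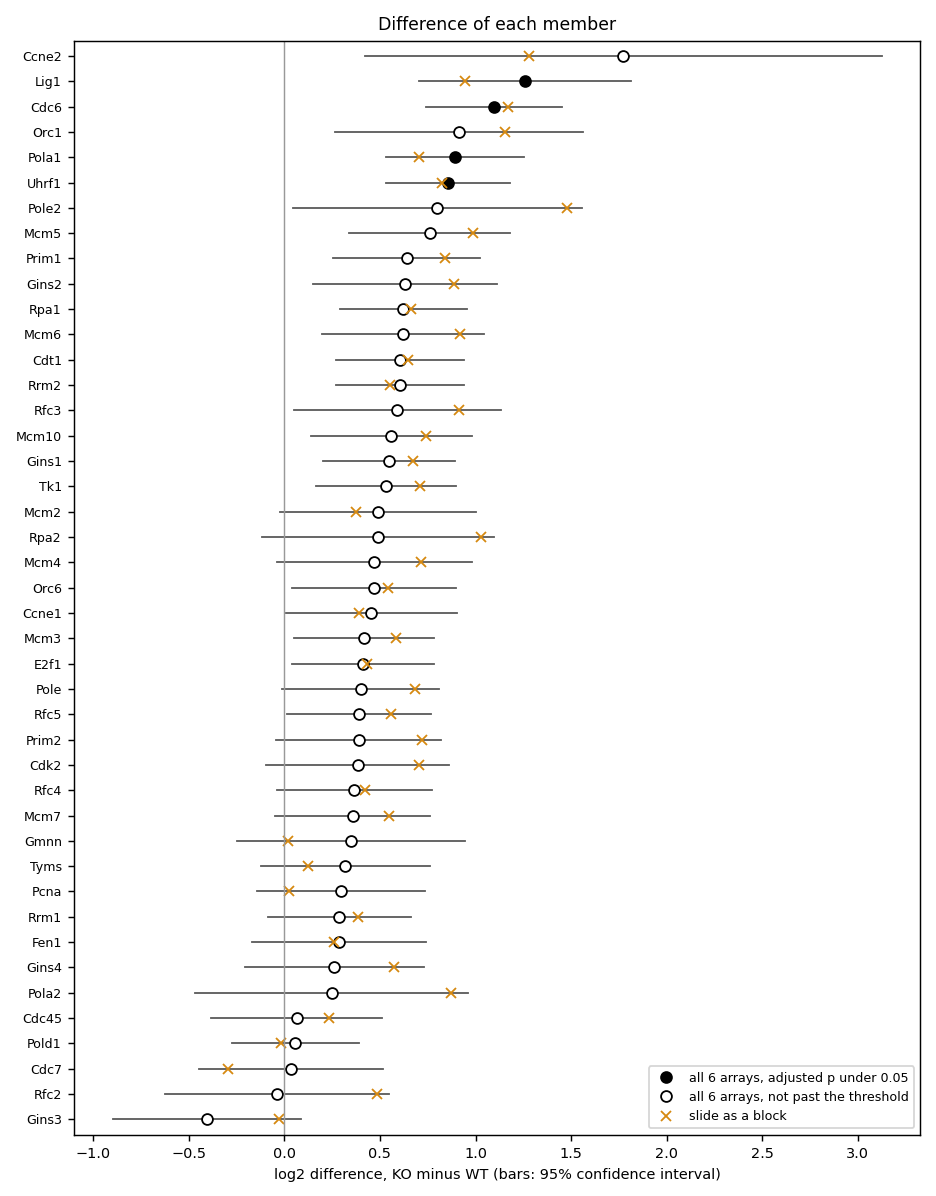
Difference of each gene, KO minus WT on the log2 scale (horizontal axis), ordered by size, with circles for the fit on all 6 arrays, filled where the adjusted p is under 0.05, bars for 95% confidence intervals and orange crosses for the fit with the slide as a block. The 4 filled circles are Lig1, Cdc6, Pola1 and Uhrf1, and the crosses of Cdc7, Gins3 and Pold1 lie below 0.

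Cdc6, an ATPase that joins the origin recognition complex to load the MCM helicase, had the smallest p of the members. Its level was -0.17, -0.31 and -0.24 in KO 947, 948 and 949, against -1.36, -1.16 and -1.48 in WT 1, 2 and 3. The 3 KO arrays were close together, and every one lay above the highest WT array. The means were -0.24 ± 0.07 in KO and -1.34 ± 0.16 in WT (SD, n = 3 each), a difference of 1.10 ± 0.15 (SE), or 2.14-fold, with a 95% interval of 0.74 to 1.45 on the log2 scale and an adjusted p of 0.0182 (limma). A second, dimmer Cdc6 probe read -0.98, -0.79 and -0.72 in KO 947, 948 and 949, against -1.86, -2.20 and -2.26 in WT 1, 2 and 3, and so did not overlap between genotypes either. With the slide as a block the difference was 1.17 and the adjusted p 0.0737. Leaving out KO 948, KO 949, WT 1 or WT 3 put the adjusted p at 0.0713, 0.0633, 0.0822 and 0.0514, in that order, and leaving out KO 947 or WT 2 kept the call.

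Uhrf1 binds hemimethylated DNA behind the replication fork and brings the maintenance methyltransferase there. It stood at 2.94, 3.00 and 2.98 in KO 947, 948 and 949, against 2.05, 2.07 and 2.25 in WT 1, 2 and 3. The KO arrays were close together and the genotypes did not overlap. The means were 2.98 ± 0.03 in KO and 2.12 ± 0.11 in WT (SD, n = 3 each), and the difference was 0.86 ± 0.14 (SE), 1.81-fold, with an interval of 0.53 to 1.18 and an adjusted p of 0.0298 (limma). The slide-blocked fit gave 0.82 (adjusted p = 0.117). Leaving out any array but KO 947 ended the call, with adjusted p of 0.121 without KO 948, 0.0991 without KO 949, and 0.111, 0.0972 and 0.0547 without WT 1, 2 and 3.

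Pola1, the catalytic subunit of DNA polymerase alpha, which with primase lays down the first stretch of each new strand, stood at 1.68, 1.98 and 1.95 in KO 947, 948 and 949, against 0.87, 1.03 and 1.04 in WT 1, 2 and 3. Every KO array lay above every WT array, KO 947 being the lowest of the KO arrays. The means of 1.87 ± 0.16 in KO and 0.98 ± 0.09 in WT (SD, n = 3 each) differed by 0.89 ± 0.15 (SE), 1.86-fold, with an interval of 0.53 to 1.25 and an adjusted p of 0.0358 (limma). The slide-blocked difference was 0.71 (adjusted p = 0.148). Leaving out any array but KO 947 ended the call, with adjusted p of 0.135 without KO 948, 0.113 without KO 949, and 0.125, 0.0985 and 0.0828 without WT 1, 2 and 3.

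Lig1, the ligase that seals Okazaki fragments on the lagging strand, had the widest spread of the 4. It stood at 4.91, 5.43 and 5.34 in KO 947, 948 and 949, against 4.32, 3.63 and 3.97 in WT 1, 2 and 3. KO 947 and WT 1 were the closest pair across genotypes, and the groups did not overlap. The means were 5.23 ± 0.27 in KO and 3.97 ± 0.35 in WT (SD, n = 3 each), which gave a difference of 1.26 ± 0.23 (SE), 2.39-fold, with an interval of 0.70 to 1.81 and an adjusted p of 0.0433 (limma). The slide-blocked fit gave 0.94 (adjusted p = 0.197). Leaving out any array but KO 947 ended this call too, with adjusted p of 0.143 without KO 948, 0.121 without KO 949, and 0.0792, 0.112 and 0.103 without WT 1, 2 and 3.

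**Figure D3:**
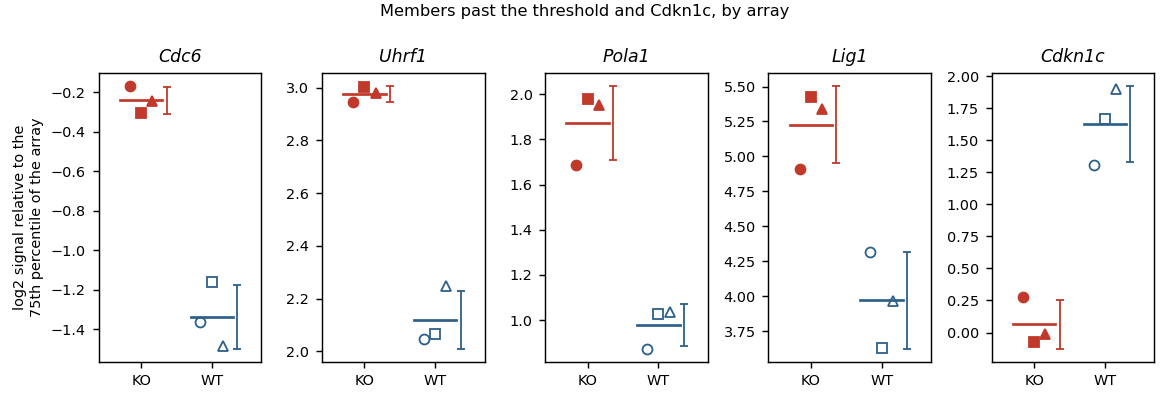
Level on each array, as log2 signal after scaling to the array's 75th percentile (vertical axis, a separate scale for each panel), of the 4 members that rose and of Cdkn1c from a comparison list, with KO left and WT right, the symbols of the plot by array, lines for means and bars for ± 1 SD (n = 3 each). In every panel the KO and WT arrays do not overlap, and Cdkn1c is the panel in which KO is lower.

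Promoter sequences bear on these genes because E2F factors act there. RefSeq windows (build GRCm38.p6) from 250 bases before to 50 after a transcript start were found for 34 of the 43 members, and the first window listed was used where a gene had several. Shown here are the 250 bases before the start for the 3 members with the smallest p, 5′ to 3′ on the strand of the gene, with motif matches in capitals. The Cdc6 window, chr11:98907901-98908150 on the plus strand, lies inside the outermost bounds of the gene, that of Uhrf1, chr17:56303087-56303336 on the plus strand, lies outside them, and that of Pola1, chrX:93632156-93632405 on the minus strand, overlaps them in part.
Cdc6: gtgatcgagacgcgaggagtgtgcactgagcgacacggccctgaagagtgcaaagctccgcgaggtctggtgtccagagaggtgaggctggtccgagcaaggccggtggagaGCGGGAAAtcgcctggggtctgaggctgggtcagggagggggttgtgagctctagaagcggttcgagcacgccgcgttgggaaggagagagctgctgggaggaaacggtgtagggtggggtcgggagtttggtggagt
Uhrf1: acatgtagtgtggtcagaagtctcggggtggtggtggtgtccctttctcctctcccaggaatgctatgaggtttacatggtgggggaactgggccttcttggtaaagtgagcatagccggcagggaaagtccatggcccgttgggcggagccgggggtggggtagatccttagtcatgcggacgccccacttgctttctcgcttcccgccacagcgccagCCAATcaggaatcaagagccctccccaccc
Pola1: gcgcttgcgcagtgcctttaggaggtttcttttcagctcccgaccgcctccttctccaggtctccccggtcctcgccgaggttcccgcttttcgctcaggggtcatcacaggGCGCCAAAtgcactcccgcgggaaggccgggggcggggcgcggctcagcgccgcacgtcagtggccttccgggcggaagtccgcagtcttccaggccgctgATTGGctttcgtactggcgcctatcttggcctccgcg
The capitals in Cdc6 are the E2F motif TTTCCCGC read on the opposite strand, at -138 to -131 from the start. Those in Uhrf1 are a CCAAT box at -30 to -26. In Pola1 they are TTTGGCGC on the opposite strand at -138 to -131 and CCAAT on the opposite strand at -37 to -33.

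The search used both strands of the 34 windows. The E2F motif TTTCGCGC was in 5 windows (14.7%, against 0.446% of 17492 windows of protein-coding genes), TTTGGCGC in 6 (17.6%, against 0.657%) and TTTCCCGC in 7 (20.6%, against 1.46%). At least 1 of these was in 13 windows, those of Orc1, Cdc6, Cdt1, Mcm3, Mcm5, Mcm6, Mcm7, Gins3, Pola1, Pold1, Pole2, Rfc3 and Cdk2 (38.2%, against 2.48%). In Mcm5 and Mcm6 a TTTCGCGC and a TTTGGCGC match on opposite strands overlap. CCAAT was in 20 windows (58.8%, against 39.0%), and TTTGAA, the core of the cell cycle homology element, in 5 (14.7%, against 16.5%). The motif bound by BACH and small MAF proteins, searched as TGC followed by TGAGTCA or TGACTCA, was in none of the 34 windows and in 0.183% of windows of protein-coding genes. The 13 members with an E2F match had a median difference of 0.61, with 9 that did not overlap between genotypes and were higher in KO, and the 21 without one had a median of 0.45 with 15 such members. Among all genes, 13.4% did not overlap and were higher in KO. Each set held 2 of the 4 genes that rose, where 1.14% of all genes rose.

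The 5 licensing genes were all higher in KO, with a median difference of 0.61, and in 4 of them the genotypes did not overlap. Cdt1, the partner of Cdc6 in helicase loading, read 3.47, 3.33 and 3.49 in KO 947, 948 and 949, against 2.78, 2.95 and 2.75 in WT 1, 2 and 3. The groups did not overlap, yet the difference of 0.61 ± 0.14 (SE) missed the threshold (adjusted p = 0.0737, limma). Orc1, the largest subunit of the origin recognition complex, had a larger difference and a wider spread, 0.91 ± 0.27 (SE, adjusted p = 0.128, limma). Its levels were -2.40, -2.28 and -3.24 in KO 947, 948 and 949 and -3.58, -3.40 and -3.70 in WT 1, 2 and 3, so KO 949 lay near the WT arrays. Without KO 949, Orc1 was the 1 member past the threshold. Orc6, another subunit of that complex, differed by 0.47. Gmnn encodes geminin, the inhibitor of Cdt1, and its difference of 0.35 came with overlapping groups (4.10, 4.43 and 4.75 in KO 947, 948 and 949, against 4.16, 4.40 and 3.69 in WT 1, 2 and 3) and was 0.02 with the slide as a block.

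The 6 subunits of the MCM2-7 helicase, which unwinds DNA ahead of the fork, all had higher means in KO, and all but Mcm7 did not overlap between genotypes. Their median difference was 0.48, and 0.65 with the slide as a block. None passed the threshold (limma), and 3 had an unadjusted p under 0.05. Mcm5 came closest. It read 3.61, 3.40 and 3.14 in KO 947, 948 and 949, against 2.72, 2.46 and 2.70 in WT 1, 2 and 3, a difference of 0.76 ± 0.18 (SE, adjusted p = 0.0735, limma). Mcm6 read 5.43, 5.07 and 4.90 in KO 947, 948 and 949, against 4.58, 4.45 and 4.52 in WT 1, 2 and 3, a difference of 0.62 ± 0.18 (SE, adjusted p = 0.120, limma). In both, KO 947 was the highest array and KO 949 the lowest of the KO arrays, and their differences with the slide as a block were 0.99 and 0.92. Differences of the other subunits were 0.49 for Mcm2, 0.42 for Mcm3, 0.47 for Mcm4 and 0.36 for Mcm7. The Mcm4 value rests on 5 arrays, since its spot on KO 948 was marked as an outlier.

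The 7 genes of helicase activation were mixed. Their median difference was 0.26, 6 were higher in KO, and 3 did not overlap between genotypes. GINS is a complex of 4 proteins that joins Cdc45 and MCM2-7 at the fork, and its subunits had differences of both signs. Gins1 read 2.45, 2.37 and 2.15 in KO 947, 948 and 949, against 1.74, 1.79 and 1.80 in WT 1, 2 and 3, a difference of 0.55 ± 0.15 (SE, adjusted p = 0.102, limma). Gins2 differed by 0.63 and did not overlap, and Gins4 differed by 0.26 with overlapping groups. Gins3 had the lowest difference of the 43 members. It read 5.20, 4.70 and 4.58 in KO 947, 948 and 949, against 5.05, 5.31 and 5.34 in WT 1, 2 and 3, so KO 948 and KO 949 lay below every WT array and KO 947 did not. The difference was -0.41 ± 0.21 (SE, interval -0.90 to 0.09, adjusted p = 0.327, limma), and -0.03 in the slide-blocked fit. Mcm10, which helps to start the assembled helicase, differed by 0.56 without overlap. Cdc7, the kinase that phosphorylates MCM subunits, differed by 0.03, and Cdc45, the helicase cofactor, by 0.06. Both overlapped between genotypes, with 95% intervals of -0.45 to 0.51 for Cdc7 and -0.38 to 0.51 for Cdc45.

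All 7 polymerase and primase genes had higher means in KO, with a median difference of 0.40, and 5 did not overlap. Beside Pola1, the nearest to the threshold was Prim1, the catalytic subunit of primase, which makes the RNA primers. It read 2.52, 2.24 and 2.20 in KO 947, 948 and 949, against 1.63, 1.85 and 1.57 in WT 1, 2 and 3, a difference of 0.64 ± 0.16 (SE, adjusted p = 0.0904, limma). Prim2, the other primase subunit, differed by 0.39, and Pola2, the regulatory subunit of polymerase alpha, by 0.25. For Pola2, KO 947 was the highest array and the other KO arrays lay among the WT arrays, and the difference with the slide as a block was 0.87. Among the leading-strand polymerase epsilon genes, Pole differed by 0.40 and Pole2 by 0.80. A second, much dimmer Pole probe, above background on 5 arrays, had a difference of the other sign, -0.77, with overlapping groups. Pole2 read 1.28, 0.49 and 0.05 in KO 947, 948 and 949, against -0.26, 0.03 and -0.35 in WT 1, 2 and 3. KO 949 lay close to WT 2, and the adjusted p was 0.221 (limma). Pold1, the catalytic subunit of the lagging-strand polymerase delta, differed by 0.06, with a 95% interval of -0.27 to 0.39.

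Pcna is the sliding clamp that holds polymerases on DNA, the Rfc genes encode its loader, and the Rpa genes encode the protein that covers single-stranded DNA. Of these 7 genes, 6 had higher means in KO and 5 did not overlap, with a median difference of 0.39. Rpa1, the largest RPA subunit, had the smallest p among members that missed the threshold. It read 4.90, 4.78 and 4.89 in KO 947, 948 and 949, against 4.33, 4.28 and 4.10 in WT 1, 2 and 3, a difference of 0.62 ± 0.14 (SE, adjusted p = 0.0680, limma). Rpa2 differed by 0.49, with KO 947 well above the rest and KO 949 next to WT 3. Its levels were 2.61, 1.95 and 1.66 in KO 947, 948 and 949 and 1.48, 1.63 and 1.66 in WT 1, 2 and 3. Pcna read 5.66, 6.19 and 5.94 in KO 947, 948 and 949, against 5.67, 5.75 and 5.48 in WT 1, 2 and 3. KO 947 lay among the WT arrays for this gene, and the difference was 0.30 (adjusted p = 0.415, limma) on all arrays and 0.02 with the slide as a block.

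In the clamp loader, Rfc3 differed by 0.59, Rfc5 by 0.39 and Rfc4, which lacks a value on WT 3, by 0.37. A second Rfc4 probe, above background on all 6 arrays, differed by 0.21 with overlapping groups. Rfc2 was the other member with a lower mean in KO. It read 4.27, 3.55 and 3.42 in KO 947, 948 and 949, against 3.74, 3.69 and 3.93 in WT 1, 2 and 3. KO 947 was the highest array and KO 949 the lowest, so the KO arrays surrounded the WT arrays. The difference was -0.04 ± 0.25 (SE, interval -0.63 to 0.55, adjusted p = 0.946, limma), and 0.48 in the slide-blocked fit. Its sign also turned without KO 948, without KO 949 and without WT 3, where it was 0.06, 0.12 and 0.03.

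Beside Lig1, the lagging strand was represented by Fen1, the nuclease that trims Okazaki fragments, which differed by 0.29 (adjusted p = 0.449, limma) with overlapping groups. The 4 genes of deoxynucleotide supply all had higher means in KO, with a median difference of 0.43, and 3 did not overlap. Rrm2, the small subunit of ribonucleotide reductase, read 3.93, 4.04 and 3.99 in KO 947, 948 and 949, against 3.48, 3.42 and 3.23 in WT 1, 2 and 3. The KO arrays were tightly grouped, and the difference of 0.60 ± 0.14 (SE) missed the threshold (adjusted p = 0.0740, limma). Tk1, a thymidine kinase of cycling cells, read 4.93, 4.75 and 4.59 in KO 947, 948 and 949, against 4.32, 4.13 and 4.23 in WT 1, 2 and 3, a difference of 0.53 ± 0.15 (SE, adjusted p = 0.121, limma). Rrm1, the large reductase subunit, differed by 0.29, and Tyms, which makes thymidylate, by 0.32.

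The 4 genes of G1/S control had higher means in KO, with a median difference of 0.43, and none passed the threshold (limma), though 3 had an unadjusted p under 0.05. Ccne2, encoding cyclin E2, had the largest difference of the 43 members on all 6 arrays and the widest interval. It read -4.05, -3.65 and -2.97 in KO 947, 948 and 949, against -5.17, -4.30 and -6.53 in WT 1, 2 and 3. The groups did not overlap, but the probe was dim, and on WT 3 it was not well above background. The difference was 1.77 ± 0.57 (SE, interval 0.42 to 3.13, adjusted p = 0.148, limma), and 1.28 with the slide as a block, where that of Pole2 was larger. It was 1.17 without WT 3, below that of Lig1 in the same fit (1.25), and 0.88 in males only. Ccne1, encoding cyclin E1, differed by 0.45 on the probe used and by 0.68 on a second, dimmer probe, and neither probe overlapped between genotypes. E2f1, the activating E2F factor, read 4.13, 4.22 and 3.97 in KO 947, 948 and 949, against 3.82, 3.51 and 3.76 in WT 1, 2 and 3, a difference of 0.41 (adjusted p = 0.205, limma). Cdk2, the kinase of cyclin E, differed by 0.38 with overlapping groups.

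The members were mostly bright probes. With all genes tested divided into 5 equal bins by mean level, the bins from dimmest to brightest held 2, 3, 6, 14 and 18 members. Brightness moved with genotype over all genes, since 23.3%, 41.8%, 57.9%, 64.6% and 58.4% of the genes in these bins had a difference above 0. The part of brightness in the members' result was not tested. Within the 2 brightest bins, 13 of 14 and 11 of 18 members did not overlap and were higher in KO, beside 20.6% and 16.8% of all genes there.

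Sex was represented in both genotypes and was compared as female minus male with genotype as a covariate. None of the 43 members passed the threshold (limma), and 1 had an unadjusted p under 0.05, against 0.00635% and 2.84% of all genes. The median was -0.13, with 7 members higher in females. The same median and count were not taken over all genes. An interaction of sex and genotype could be fitted for 42 members, none of which passed (limma), against 0.0254% of 15731 genes. At an unadjusted p under 0.05 there were 2 members, against 7.12% of these genes.

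The other replication genes had a smaller median difference. Of 41 tested among 42 listed, 33 had higher means in KO (80.5%, against 49.2% of all genes), with a median difference of 0.27. In 14 the genotypes did not overlap and KO was higher (34.1%, against 13.4% of all genes). In 1 they did not overlap and KO was lower, as in 2123 of all 15736 genes. None of them fell.

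Of 33 other regulators of the G1/S step, 31 were tested, and 22 of them had higher means in KO (71.0%, against 49.2% of all genes). The median difference of the 31 was 0.29. In 13 the genotypes did not overlap and KO was higher (41.9%, against 13.4% of all genes). In 5 they did not overlap and KO was lower, as in 2123 of all 15736 genes. At an unadjusted p under 0.05, 8 were higher (25.8%, against 8.87%) and 5 lower, where 11.6% of all genes were lower. None rose, against 1.14% of all genes, and 1 fell, against 2.27% of all genes. This was Cdkn1c, the cyclin-dependent kinase inhibitor p57, which read 0.28, -0.08 and -0.01 in KO 947, 948 and 949, against 1.31, 1.66 and 1.90 in WT 1, 2 and 3. All KO arrays lay more than 1 log2 unit below the lowest WT array. The difference was -1.56 ± 0.20 (SE, adjusted p = 0.0159, limma), and it missed the threshold in the slide-blocked fit (adjusted p = 0.0939). Chosen after their values were seen, D-type cyclins had differences of 0.86 for Ccnd1, 1.16 for Ccnd2 and 0.41 for Ccnd3. The other listed inhibitors of cyclin-dependent kinases had differences of both signs, -0.92 for Cdkn2a, -0.79 for Cdkn2b, -0.11 for Cdkn1b, 0.29 for Cdkn2c, 0.33 for Cdkn1a and 0.39 for Cdkn2d. Of these cyclins and inhibitors other than Cdkn1c, none passed the threshold (limma).

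Genes of mitosis and G2/M, which act after replication, had higher means in KO for the most part. Of 36 tested, 32 had higher means in KO (88.9%, against 49.2% of all genes), with a median difference of 0.29. In 9 the genotypes did not overlap and KO was higher (25.0%, against 13.4% of all genes). None passed the threshold (limma), and 8 were higher at an unadjusted p under 0.05 (22.2%, against 8.87%). Ect2, needed for cytokinesis, differed by 0.84 (adjusted p = 0.0832, limma), and Cdk1, the mitotic kinase, by 0.67 (adjusted p = 0.220, limma). The difference between the members' median and those of the other lists was not tested.

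**Figure D4:**
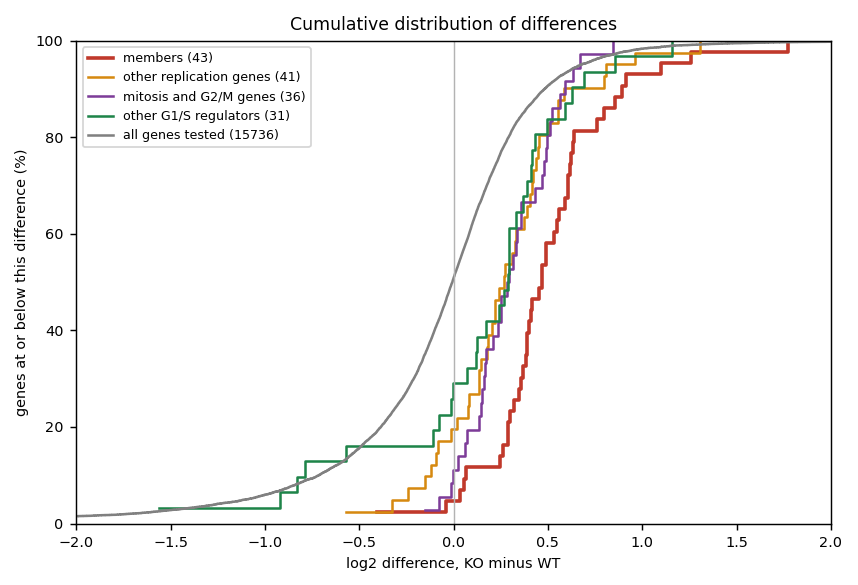
Cumulative share of genes (vertical axis, percent) at or below each log2 difference, KO minus WT (horizontal axis, drawn from -2 to 2), for the 43 members in red, the comparison lists and all 15736 genes in grey. The members' curve reaches 50% at their median of 0.47, right of the other lists at 0.27 to 0.29 and of all genes at -0.01.

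Some markers of other cells that such cultures can hold also differed between genotypes. Over all genes, 2.27% fell in KO and 1.14% rose. Among dendritic cell markers 6 of 12 tested fell in KO, including Ccr7 and Ciita, and the summed linear level was 343 to 379 in KO and 505 to 595 in WT. For granulocyte markers 1 of 10, S100a9, fell, with summed levels of 244 to 283 in KO and 329 to 387 in WT. For myeloid progenitor markers Kit fell and the other 10 did not pass. Their summed level was 32.6 to 36.5 in KO and 22.9 to 28.6 in WT, while 7 of the 11 had lower means in KO, with a median difference of -0.10. For eosinophil, mast cell and basophil markers 2 of 9, Mcpt8 and Prss34, fell, with summed levels of 6.90 to 23.1 in KO and 25.4 to 55.3 in WT. For stromal markers 3 of 9, Sparc, Col1a1 and Col1a2, fell, with summed levels of 4.34 to 6.29 in KO and 11.5 to 44.8 in WT. Erythroid markers (3.23 to 5.46 in KO, 4.80 to 10.7 in WT) and B and T cell markers (2.80 to 3.43 in KO, 3.08 to 3.87 in WT) held no gene past the threshold (limma). With the slide as a block, Ciita and Sparc kept their calls among these markers and the others lost theirs. Xcr1, Ms4a2, Lum and Ms4a1 were above background on no array. The part of these cells in the members' result was not tested.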

How the data were processed

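Total RNA of 6 macrophage cultures, 1 per mouse, was amplified, labelled with a cyanine dye and hybridised to 1-colour Agilent mouse arrays, per the labels' protocols. The mice were separate animals and each was a replicate. The deposited scanner files hold spot intensity values from Agilent's Feature Extraction software, whose version is 10.7.3.1 in the file headers and 9.1 in the submitters' processing notes. Per the file headers, the processed signal used here had its background subtracted and was detrended array by array, and the arrays were not scaled to each other. A deposited table of log2 values for 3215 probes was made by the authors, each probe centred on its median over the 6 arrays. In all of these probes the genotypes do not overlap, so it is no independent evidence and served as an alternative only. Its column medians were -0.10, -0.13 and -0.13 for KO 947, 948 and 949 and 0.14, 0.11 and 0.11 for WT 1, 2 and 3, and its scaling before centring is unknown.

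Of 62976 spots, 59305 were not controls, and they gave 55681 probes, of which 26413 were named through transcript accessions and RefSeq (GRCm38.p6). The log2 processed signal was reduced by the log2 75th percentile of its array, outlier spots were dropped and spots of a probe averaged. A probe was kept if at least 3 of 6 arrays had it well above background. The brightest probe of each gene was kept, and 35 genes lack 1 value. Genotypes were compared with limma 3.58.1 (lmFit, eBayes) in R 4.3.3, two-sided, without covariates, with Benjamini-Hochberg adjustment over 15736 genes and a threshold of 0.05. The fit was tested on data simulated from the genes' means and spreads, with 50 genes raised in KO by each of several sizes. It called 2% of those raised by 0.5 on the log2 scale, 14% by 1, 72% by 2 and 86% by 3. There were 9 false calls in the 15701 genes simulated. The members, lists, motifs and tests were chosen with earlier results of these data known. Values per array are given for the 12 members with the smallest p, for 1 member of each role that has none of these and for members lower in KO. Those of Orc1, Gmnn, Pole2, Pcna, Rpa2 and E2f1 were added after their values were seen. From other lists up to 4 genes past the threshold were named, or 2 by size where none passed.

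Alternatives were quantile normalization, median scaling, normexp (offset 50, on the median spot signals in the files, where mean signals had been planned), genes unfiltered or seen on all 6 arrays, slide blocks (fixed, random, or the shared slide alone), sex as a covariate, only males, probe means per gene, outlier spots kept, trend and robust eBayes, array weights, each array left out, and the authors' table. Results for a few genes of the comparison lists are not reported here.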

Additional observations from a re-analysis of the deposited data

How the results depend on the processing

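No member fell under any of the 21 alternatives, and under those that used the arrays between 39 and 42 of the 43 were higher in KO, or 39 of the 41 members that were above background on all 6 arrays. The members' median difference ran from 0.43 to 0.50 with each array left out, and was 0.67 with median scaling, 0.66 with the slide as a fixed block or with its 1 slide alone, and 0.65 over the 14 members in the authors' table. The count of 4 members that rose is unstable. It was 13 with median scaling, 10 with trend and robust eBayes and with array weights, 2 without a filter, 1 with the slide as a random block or sex as a covariate (Cdc6 in both), and 0 with the slide as a fixed block, with its 1 slide alone and with males only. It ran from 0 to 4 with each array left out, being 0 without KO 948, WT 1 or WT 3, and 1 without KO 949 (Orc1) or WT 2 (Cdc6). Calls over all genes moved as well. Of 15736 genes, 180 rose in the main fit, 384 with median scaling and 657 with array weights. With trend and robust eBayes 351 rose, and without a filter 67 of 20018. A random slide block gave 69, sex as a covariate 77 and males only 21. With an array left out, between 20 (without WT 1) and 330 (without KO 947) rose. The authors' table, whose probes all separate the genotypes, gave 13 past the threshold, and 14 each for members higher, not overlapping and at an unadjusted p under 0.05. That unadjusted count, 23, was 35 with median scaling and ran from 14 to 24 with each array left out. With the slide as a fixed block and with males only, where no member passed the threshold, it was 28 and 19 (limma). Without the 1 array each of KO 948, WT 1 and WT 3 it was 14, 19 and 17. Among all genes, 8.87% were higher in KO at that p in the main fit and 20.7% with median scaling. This share was not counted with males only or with an array left out.

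Cdc6 kept its call under 13 of the 20 alternatives other than the authors' table, Uhrf1 under 10, Pola1 under 9 and Lig1 under 8, all without a change of sign. Rfc2 turned to 0.18 with median scaling, 0.48 with the slide as a fixed block or alone, 0.14 with it as a random block, 0.20 with males only, and ran from -0.30 to 0.12 with an array left out. Medians of other lists were 0.27 for replication, 0.29 for G1/S regulators and 0.29 for mitosis. They were 0.49, 0.51 and 0.51 with median scaling, and ran from 0.20 to 0.34, 0.17 to 0.29 and 0.19 to 0.41 with each array left out. The authors' table, whose probes all separate the genotypes, holds only 7, 5 and 3 genes of these lists. Over those genes the medians were 0.57, 0.34 and 0.65. With the slide as a fixed block or alone, replication gave 0.36 and G1/S regulators 0.26. G1/S regulators gave 0.23 with quantile normalization, 0.22 with normexp, 0.21 with a random block, 0.24 with probe means and 0.23 with array weights, and mitosis 0.44 with males only. The cause of these shifts was not tested. No paired analysis was possible because the genotypes share no replicate numbers. With 3 arrays a group and KO 948 and KO 949 alone on their slide, slide and genotype are separated only by KO 947.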
